A study of Mus musculus with 4 samples.

Results

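Cerebellins and C1q-like proteins are small secreted proteins with a C1q domain that hold synapses together, and the delta receptors are the partners of the cerebellins on the receiving neuron. The 8 genes described here are 4 cerebellin genes (Cbln1, Cbln2, Cbln3 and Cbln4), 3 C1q-like genes (C1ql1, C1ql2 and C1ql3) and the delta receptor gene Grid1. They are 8 of the 22206 gene probe sets of the arrays, 1 probe set each, matched by the gene symbol of the platform annotation. The family was selected on measured values, with the difference of Cbln1 between treated and control mice on these same arrays known. The differences between the groups are therefore given as descriptions.

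Cortex was taken from male mice of the senescence-accelerated line SAMP8. One group was given TCQA, which the labels name only by this abbreviation, by mouth at 5 mg/kg each day, and the control group was given MilliQ water. In both groups the mice lived in single cages for 4 months from an age of 7 months, and dosing began at 11 months and lasted 1 month. RNA of each group was read on 2 Clariom S arrays. Whether the 2 arrays of each group stand for different animals is not stated in the labels, so their spread may be technical and p-values measure only that spread.

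Cerebellins assemble into complexes that bind neurexins on the axon terminal and delta receptors on the dendrite, so that one secreted molecule bridges the synaptic cleft. Cbln1 is best known from the synapse of cerebellar granule cells onto Purkinje cells, and in the forebrain the cerebellins work mostly with GluD1, the product of Grid1. C1q-like proteins bind the adhesion receptor Adgrb3, and in the hippocampus some of them recruit kainate receptors. In cortex tissue, cerebellin and C1q-like messages come from particular neurons or glia rather than from all cells. In a tissue sample fewer cells of a type and less RNA per cell cannot be told apart.

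The values are log2 signals, so a difference of 1 is a 2-fold change. The signal of a probe set can be compared between arrays, but levels of different probe sets do not measure relative amounts of RNA. Levels set against the negative controls are used here only as a rough guide to how dim or bright a probe set is. Array medians over the gene probe sets were 7.15 and 7.15 for TCQA and 7.12 and 7.17 for control. Probe sets marked as negative controls by their IDs in the deposited table had medians of 7.21 and 7.23 on the TCQA arrays and 7.32 and 7.17 on the control arrays, and genes near or below those levels are measured with less certainty. Marker lists of neighbouring brain regions and of the meninges differed from array to array, as described after the family's own values. With limma and Benjamini-Hochberg adjustment over all gene probe sets, 0 of 22206 (0%) had an adjusted p under 0.05, while 1386 (6.24%) had an unadjusted p under 0.05. The depositors' criterion (fold change above 2 and unadjusted p below 0.05) was met by 83 (0.374%). Leaving out a TCQA array gave 218 (replicate 1) or 291 (replicate 2), and leaving out a control array gave 160 (replicate 1) or 231 (replicate 2).

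Cbln1, the first cerebellin described, stood higher in TCQA cortex. Its log2 signals were 9.02 and 8.74 on the TCQA arrays, against 7.99 and 7.47 on the control arrays. Both TCQA arrays lay above both control arrays, and the distance between the nearest arrays of the groups, 0.74, was larger than the distance between the 2 TCQA arrays (0.28) or the 2 control arrays (0.53). Cbln1 averaged 8.88 ± 0.20 in TCQA cortex and 7.73 ± 0.37 in control cortex (SD, n = 2 each). The difference was 1.15 (SE 0.24, 95% confidence interval 0.57 to 1.73), a 2.2-fold higher level. Of all gene probe sets, 27 had a higher positive difference, and 65 (0.293%, Cbln1 among them) had groups at least as far apart. The family was selected with the Cbln1 difference known, so nothing is read from these ranks.

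Cbln1 lay 1.81 and 1.51 above the negative control median on the TCQA arrays and 0.68 and 0.30 above it on the control arrays. The upper quartile of the negative controls was 8.57 on both TCQA arrays, which Cbln1 exceeded, and 8.75 and 8.55 on the control arrays, which it did not reach. The control level of Cbln1 is thus between the median and the upper quartile of the negative controls. The TCQA level is above that quartile, but by definition part of the negative controls lie above it too. These values therefore do not show that the TCQA level is outside the range of the negative controls. The difference was 1.41 without control replicate 1, 1.29 without TCQA replicate 2, 1.01 without TCQA replicate 1 and 0.88 without control replicate 2. The last value is under 2-fold, so Cbln1 no longer met the depositors' criterion without control replicate 2.

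**Figure D1:**
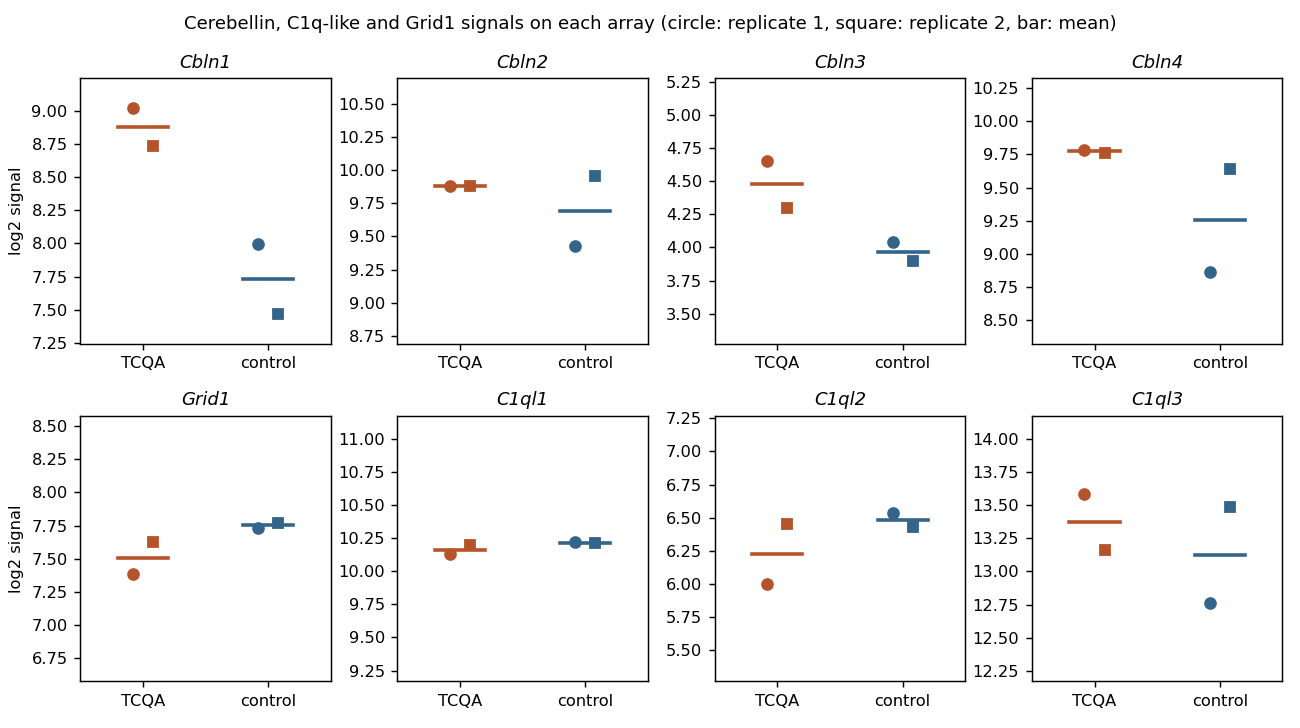
Log2 signal (vertical axes, each spanning 2 log2 units) of the 8 genes on the TCQA arrays (left in each panel) and the control arrays (right); circles are replicate 1, squares replicate 2 and bars group means. Cbln1 shows the widest separation of the groups, while Cbln2, Cbln4 and C1ql3 share a low value on control replicate 1.

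The other 3 cerebellins had smaller differences. Cbln2, a neurexin-binding cerebellin of cortical and other forebrain neurons, had log2 signals of 9.88 and 9.88 with TCQA, against 9.43 and 9.95 in control. The TCQA arrays fell between the control arrays, and the difference of 0.19 (SE 0.23, 95% confidence interval -0.36 to 0.74) became -0.07 without control replicate 1. Cbln4, which in mice is also known from somatostatin interneurons and binds DCC and neogenin besides neurexins, had signals of 9.78 and 9.76 with TCQA, against 8.86 and 9.64 in control. Its groups did not overlap, but the nearest arrays were only 0.12 apart and control replicate 1 was far below the other control array. The Cbln4 difference was 0.52 (SE 0.28, 95% confidence interval -0.16 to 1.20), with 0.13 without control replicate 1 and 0.91 without control replicate 2.

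Cbln3, a cerebellin of cerebellar granule cells that depends on Cbln1 for its secretion, had log2 signals of 4.65 and 4.30 with TCQA, against 4.04 and 3.90 in control. All 4 arrays lay below the negative control median, at -2.55 and -2.93 relative to it with TCQA and at -3.28 and -3.28 in control. The signals do not overlap between the groups, with a difference of 0.51 (SE 0.20), 0.33 without TCQA replicate 1 and 0.69 without TCQA replicate 2, but at this level they do not show that the gene is expressed in the tissue.

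Of the 8 genes, 4 had a promoter window in the RefSeq table used here (GRCm38.p6, 250 bases before to 50 after the start), namely Cbln3, Cbln4, C1ql2 and C1ql3. The windows of Cbln4 (chr2:172043417-172043716, minus strand) and Cbln3 (chr14:55884207-55884506, minus strand) are shown because these are the cerebellins with a window, and both had their TCQA arrays above their control arrays. Capitals mark the half-site TGACG of the cAMP response element, read on either strand.
Cbln4: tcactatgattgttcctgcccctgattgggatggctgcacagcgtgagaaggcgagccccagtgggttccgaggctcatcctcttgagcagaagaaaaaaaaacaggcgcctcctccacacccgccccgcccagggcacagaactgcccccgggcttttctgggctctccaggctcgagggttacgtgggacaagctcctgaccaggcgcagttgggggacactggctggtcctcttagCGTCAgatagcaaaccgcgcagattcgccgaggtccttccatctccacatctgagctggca
Cbln3: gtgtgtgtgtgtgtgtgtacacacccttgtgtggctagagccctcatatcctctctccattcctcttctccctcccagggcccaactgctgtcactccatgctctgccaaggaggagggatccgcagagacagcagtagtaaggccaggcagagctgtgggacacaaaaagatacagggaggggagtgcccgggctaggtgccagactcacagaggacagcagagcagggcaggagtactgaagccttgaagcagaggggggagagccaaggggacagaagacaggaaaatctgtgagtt

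The Cbln4 window held 1 such half-site and those of Cbln3, C1ql2 and C1ql3 held 0, against 20.8% of all 32851 windows with at least 1. The E-box CACGTG, present in 7.15% of all windows, and the TATA sequence TATAAA on either strand, present in 13.6%, were in 0 of the 4 windows. GC content was 60.3% for Cbln4, 57.0% for Cbln3, 67.3% for C1ql2 and 66.3% for C1ql3, against a median of 52.7% over all windows. These are descriptions of the letters in the windows.

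The receptor gene Grid1, which encodes GluD1, had log2 signals of 7.38 and 7.63 with TCQA, against 7.73 and 7.77 in control. Both TCQA arrays lay below both control arrays, by 0.10 between the nearest arrays, which is less than the distance of 0.25 between the 2 TCQA arrays. The difference was -0.25 (SE 0.18, 95% confidence interval -0.69 to 0.20) and was of the opposite sign to that of its ligand gene Cbln1. Grid1 lay 0.18 and 0.40 above the negative control median with TCQA and 0.41 and 0.60 above it in control, so it was dim on every array. Leaving out 1 array at a time gave differences between -0.37 and -0.12.

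Among the C1q-like genes C1ql1, known in cortex from oligodendrocyte precursors and in the hindbrain from climbing fibres, had the most even signal. It was at 10.13 and 10.20 with TCQA, against 10.22 and 10.21 in control, a difference of -0.05 (SE 0.17, 95% confidence interval -0.47 to 0.36). The groups did not overlap, but the nearest arrays were only 0.01 apart, and they overlapped once each array was centred on its median. C1ql3, a ligand of Adgrb3 in forebrain excitatory neurons, had signals of 13.59 and 13.17 with TCQA, against 12.76 and 13.48 in control. The arrays interleaved, and the difference of 0.25 (SE 0.29, 95% confidence interval -0.45 to 0.96) became -0.11 without control replicate 1 and 0.62 without control replicate 2. C1ql2, known from the mossy fibres of hippocampal granule cells, was below the negative control median on all 4 arrays. Its signals were 6.003 and 6.45 with TCQA, against 6.53 and 6.43 in control, and its difference was -0.26 (SE 0.21), with -0.03 without TCQA replicate 1 and -0.48 without TCQA replicate 2.

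**Figure D2:**
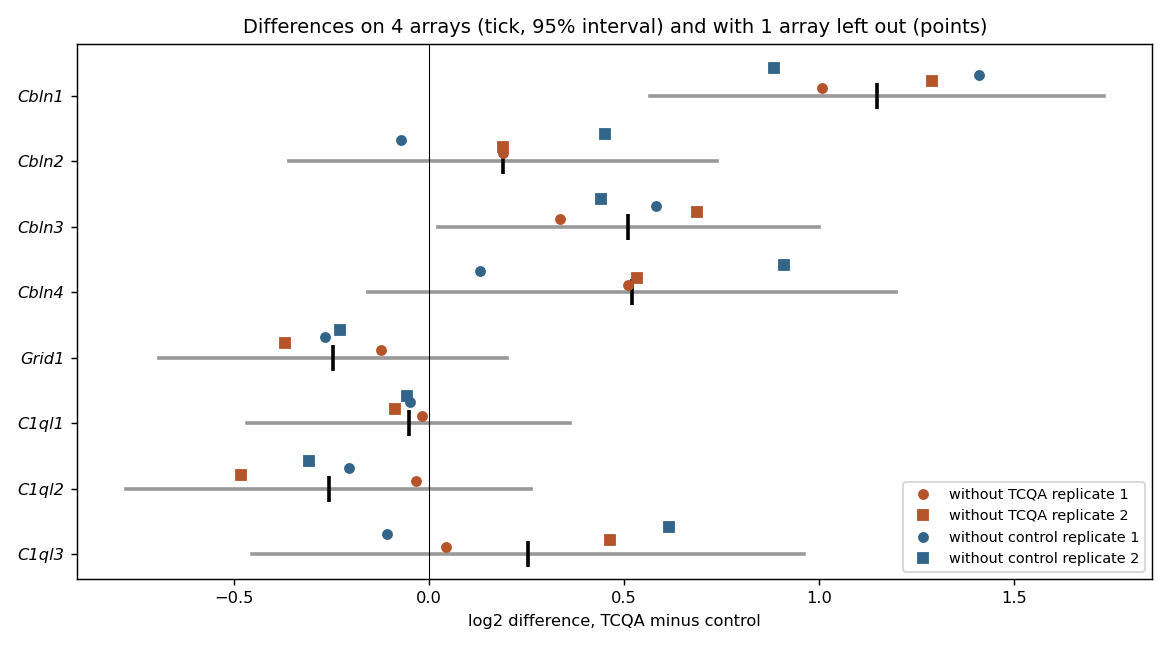
Log2 difference (horizontal axis, TCQA minus control) of each gene over 4 arrays (black tick, with its 95% confidence interval as a grey line) and with 1 array left out (points). Cbln1 keeps a difference of 0.88 or more in every case, and Cbln2 and C1ql3 cross 0 without control replicate 1.

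Across the family 5 of the 8 genes were higher and 3 lower in TCQA cortex, with a median difference of 0.22, against 0.01 over all gene probe sets. The median became -0.06 without control replicate 1 and 0.45 without control replicate 2. Groups that did not overlap were found for 5 of the 8 (Cbln1, Cbln3, Cbln4, Grid1 and C1ql1), while 36.6% of all gene probe sets (8136) had such groups. Both TCQA arrays lay above both control arrays for 3 of the 8, against 18.9% of all. Cbln1 alone of the 8 met the depositors' criterion, against 0.374% of all, and Cbln1 and Cbln3 had an unadjusted p under 0.05, against 6.24% of all. For Cbln3 this was lost without TCQA replicate 1, control replicate 1 or control replicate 2. None of the 8 had an adjusted p under 0.05 (limma, smallest adjusted p = 0.787). Because the family was selected with such differences known, nothing is read from these counts.

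**Figure D3:**
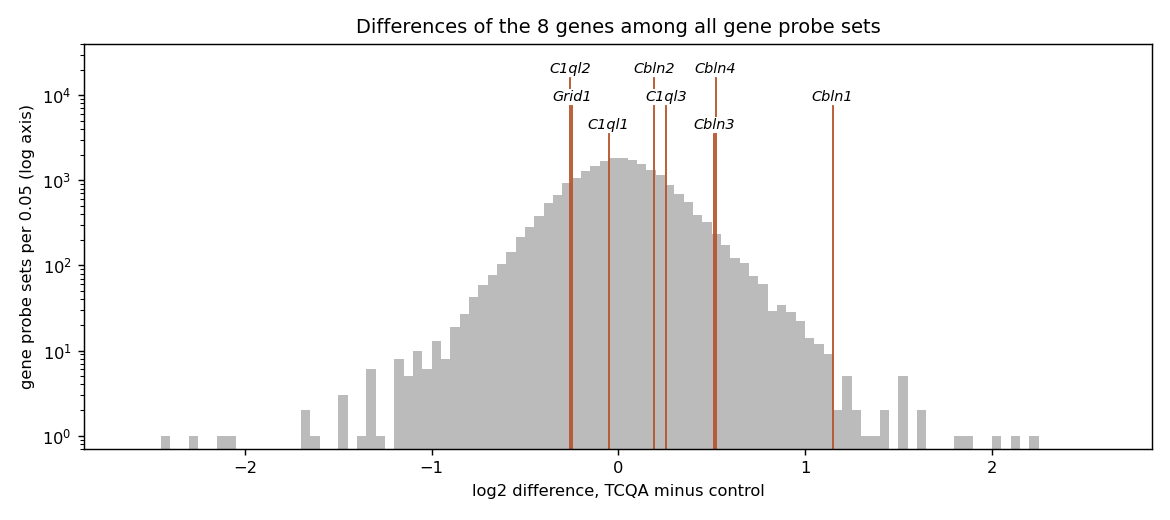
Number of gene probe sets (vertical axis, log scale) by log2 difference, TCQA minus control (horizontal axis), with orange lines at the 8 genes. Cbln1 at 1.15 lies in the upper tail, Cbln3 and Cbln4 at 0.51 and 0.52 at the upper shoulder, and the other 5 genes between -0.26 and 0.25.

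The arrays of one group differed somewhat more for these genes than for a typical gene. The median pooled within-group SD was 0.25 over the 8 genes and 0.19 over all gene probe sets. C1ql3 and Cbln4 had the widest spread, with pooled SDs of 0.42 and 0.39 that exceeded those of 90.3% and 87.8% of all gene probe sets. That spread came mainly from the control pair, whose arrays were 0.72 apart for C1ql3 and 0.78 for Cbln4. TCQA replicate 1 gave the highest signal for 4 of the 8 genes and the lowest for 3 (Grid1, C1ql1 and C1ql2), and TCQA replicate 2 gave the highest or lowest for 0. Control replicate 1 gave the lowest signal for Cbln2, Cbln4 and C1ql3, and control replicate 2 for Cbln1 and Cbln3.

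The known binding partners differed little between the groups. Of 9 genes measured, 5 were higher and 4 lower with TCQA, with differences between -0.16 and 0.19 and a median of 0.03. Groups did not overlap for 3 of the 9, Neo1 and Nrxn3 among them, against 36.6% of all gene probe sets, 0 met the depositors' criterion and 0 had an unadjusted p under 0.05 (limma). The neurexin gene Nrxn3 had log2 signals of 13.62 and 13.50 with TCQA, against 13.76 and 13.67 in control, a difference of -0.16 (SE 0.18). Nrxn2, another neurexin gene, differed by 0.09 (SE 0.18). Adgrb3, the receptor of the C1q-like proteins, was bright and even, at 14.91 and 14.83 with TCQA, against 14.86 and 14.97 in control. Neo1, which encodes the Cbln4-binding receptor neogenin, differed by 0.17 (SE 0.18), and Grik4, a kainate receptor subunit gene, by -0.12 (SE 0.19).

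Other trans-synaptic organisers, proteins that likewise join the 2 sides of a synapse, were lower with TCQA in 24 of 34 and higher in 10, with a median of -0.19. Groups did not overlap for 20 of the 34, against 36.6% of all gene probe sets, and for 15 of the 34 the TCQA pair lay wholly below the control pair, against 17.8% of all. Of the 34, 6 had an unadjusted p under 0.05, against 6.24% of all, but 0 met the depositors' criterion and 0 had an adjusted p under 0.05 (limma). Nlgn2, the neuroligin of inhibitory synapses, had signals of 11.00 and 11.24 with TCQA, against 11.96 and 11.68 in control, a difference of -0.70 (SE 0.20). The phosphatase gene Ptprf, whose product is a presynaptic adhesion receptor, differed by -0.58 (SE 0.18), the teneurin gene Tenm4 by -0.50 (SE 0.18) and Slitrk1 by -0.48 (SE 0.17). The median was -0.08 without TCQA replicate 2 and -0.12 without control replicate 1.

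Other secreted proteins with a C1q domain, such as the complement C1q chains and the C1q and tumour necrosis factor related proteins, were mostly dim. Of 21 measured, 17 were below the negative control median on all 4 arrays, 9 were higher and 12 lower with TCQA, and the median was -0.05, with -0.17 without control replicate 1 and -0.01 without control replicate 2. C1qb, a chain of complement C1q made by microglia, had signals of 7.59 and 7.72 with TCQA, against 7.20 and 7.33 in control, a difference of 0.39 (SE 0.18). On control replicate 1 C1qb was below the negative control median, and it was dim on the other arrays. Mmrn1 differed by -0.72 (SE 0.23), with all 4 arrays below the negative control median.

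Cells that make cerebellins or C1q-like proteins also lie in other brain regions, so markers of such regions were read on the same arrays. The marker lists were written with earlier results of these data known, so their counts are descriptions. Of 11 measured markers of cerebellar neurons, where Cbln1 and Cbln3 are most abundant, 6 were below the negative control median on all 4 arrays, among them Gabra6 of granule cells, at 3.05 and 2.87 with TCQA, against 3.63 and 2.80 in control. The list averaged 6.22 and 6.46 with TCQA and 6.14 and 6.23 in control. Zic1, shared with thalamus and meninges, was the 1 of 11 past the depositors' criterion, against 0.374% of all gene probe sets. Its signals were 11.22 and 11.79 with TCQA, against 8.50 and 10.72 in control. The median difference of the list was -0.08.

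Thalamic neuron markers, from a region where some neurons make Cbln1, were higher with TCQA in 9 of 12, with a median difference of 0.31. Their mean log2 signal was 9.37 and 9.72 with TCQA, against 8.97 and 9.33 in control. The lowest array was control replicate 1 in 8 of the 12 and the highest was TCQA replicate 2 in 7. Tcf7l2, a defining gene of thalamic neurons, was at 9.71 and 11.54 with TCQA, against 9.74 and 10.18 in control. Both TCQA arrays lay above both control arrays for 4 of the 12 (Calb2, Slc17a6, Rgs16 and Lef1), against 18.9% of all gene probe sets. They lay below both for 1 of the 12, against 17.8% of all. Lef1 was below the negative control median on all 4 arrays. Calb2, the calretinin gene of interneurons and of some thalamic neurons, was at 11.26 and 10.87 with TCQA, against 9.42 and 9.71 in control. It was the 1 of 12 thalamic markers past the depositors' criterion, against 0.374% of all gene probe sets. The part of thalamic cells in the Cbln1 difference was not tested.

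Olfactory bulb markers were higher with TCQA in 8 of 9 and averaged 9.05 and 7.77 with TCQA, against 7.99 and 7.75 in control. TCQA replicate 1 was highest in 6 of 9 and TCQA replicate 2 lowest in 7. Of the 9, 1 met the depositors' criterion, the thyrotropin-releasing hormone gene Trh, against 0.374% of all gene probe sets. Its signals were 7.54 and 7.89 with TCQA, above the negative control medians, against 5.49 and 5.66 in control, below them. Trh did not follow the pattern of its list, since it was the 1 marker highest on TCQA replicate 2. Hypothalamic markers were higher with TCQA in 8 of 9. They averaged 5.27 and 6.55 with TCQA, against 5.39 and 5.35 in control, with TCQA replicate 2 highest in 8 of 9. Of the 9, 8 lay below the negative control median on all arrays. The remaining marker, Pmch, was at 5.43 and 10.32 with TCQA, against 5.96 and 5.37 in control, and exceeded that median on 1 array. Choroid plexus markers averaged 7.41 and 8.17 with TCQA, against 6.43 and 8.61 in control, with control replicate 1 lowest in 6 of 8 and Ttr, the transthyretin gene, at 12.23 and 14.97 with TCQA, against 7.49 and 16.42 in control. Meningeal fibroblast markers were higher with TCQA in 10 of 10, averaging 8.49 and 8.48 with TCQA, against 7.64 and 8.24 in control, with control replicate 1 lowest in 7. Ogn, an extracellular matrix proteoglycan gene, was the 1 of 10 meningeal markers past the depositors' criterion, against 0.374% of all gene probe sets. It was at 8.45 and 8.92 with TCQA, against 6.90 and 7.46 in control, a control level near the negative control medians. The low values of Cbln2, Cbln4 and C1ql3 thus fell on the same control array as low choroid plexus, meningeal and thalamic markers. Whether these are related was not tested.

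**Figure D4:**
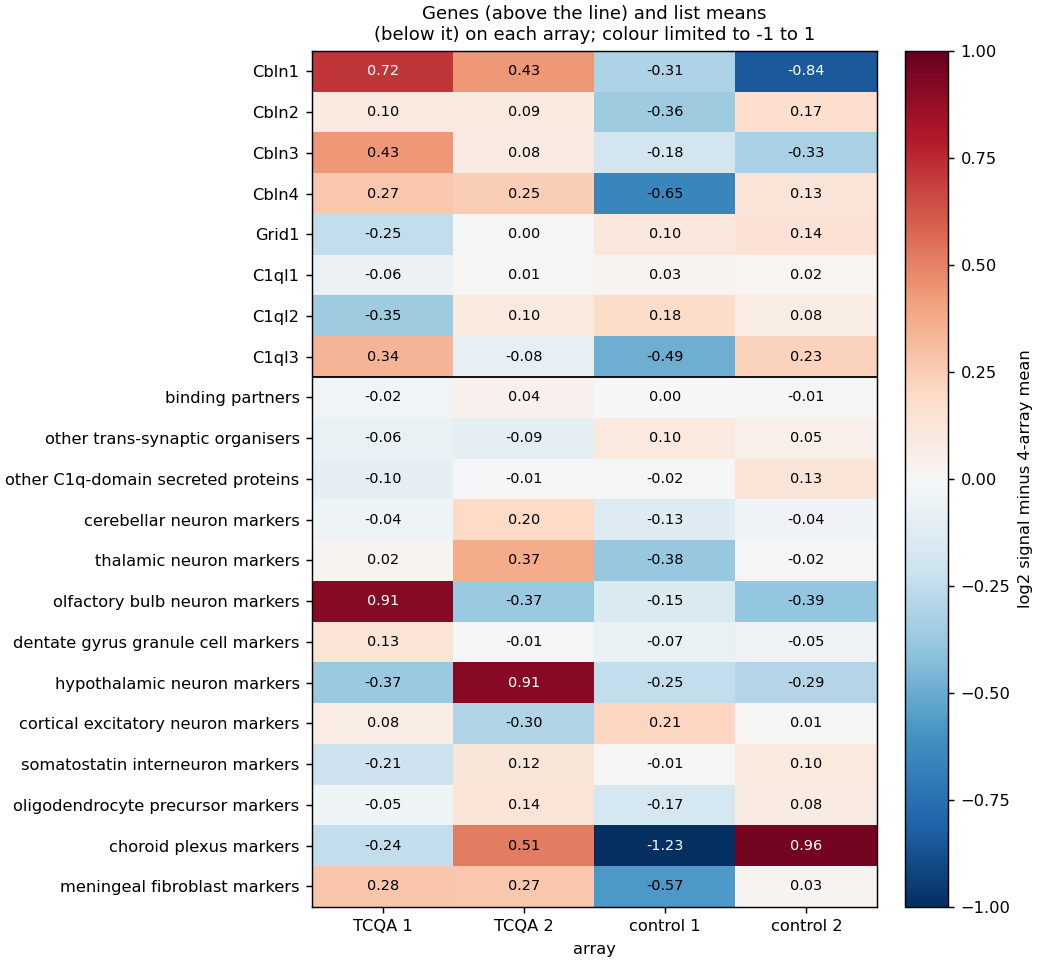
Log2 signal of each of the 8 genes (above the line) and mean log2 signal of each gene list (below it) on the 4 arrays (columns, TCQA left), each minus its own mean over the 4 arrays. The pattern of Cbln1, at 0.72 and 0.43 with TCQA and -0.31 and -0.84 in control, differs from that of Cbln4, whose low value of -0.65 is on control replicate 1.

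Cortical excitatory neuron markers were lower with TCQA in 8 of 11 and higher in 3, and in 5 of them both TCQA arrays lay below both control arrays, against 17.8% of all gene probe sets. They were all above the negative control median on at least 1 array and averaged 12.35 and 11.97 with TCQA, against 12.49 and 12.29 in control, with a median difference of -0.26. Nrgn, the neurogranin gene, differed by -0.70 (SE 0.23), Neurod2 by -0.50 (SE 0.20), Cux2 of upper layers by -0.48 (SE 0.19) and Slc17a7, a vesicular glutamate transporter gene, by -0.33 (SE 0.22). Somatostatin interneuron markers were lower with TCQA in 8 of 10 and higher in 2. Their median difference was -0.16, and they averaged 8.71 and 9.04 with TCQA, against 8.92 and 9.02 in control. Oligodendrocyte precursor markers, higher in 6 of 9, had a median of 0.05 and averaged 8.27 and 8.46 with TCQA, against 8.14 and 8.40 in control. Dentate gyrus granule cell markers were higher with TCQA in 8 of 10, with a median of 0.20. They averaged 8.25 and 8.11 with TCQA, against 8.06 and 8.07 in control. Of the 10, 4 lay below the negative control median on all 4 arrays. Prox1, which defines these cells, differed by 0.04 (SE 0.18). Of the excitatory neuron, somatostatin interneuron, precursor and dentate lists, 0 had a member past the depositors' criterion.

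The array pattern of Cbln1 was compared with those of 10048 other named probe sets at or above the median signal (7.14), after centring each on its own 4-array mean. The closest was Pcsk1n, which encodes the prohormone convertase inhibitor proSAAS and differed from Cbln1 by at most 0.07 on any array. Its signals were 11.37 and 11.23 with TCQA, against 10.45 and 9.86 in control. Lrtm2, a leucine-rich repeat membrane protein gene, followed at 0.15, and these 2 were the only ones within 0.2 of Cbln1 on every array. Next came Nab2, a corepressor of EGR transcription factors (0.20), Rab2b, a small GTPase gene (0.22), and Trp53i11 (0.26). With 4 arrays, likeness of pattern is a description only.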

How the data were processed

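The deposited table held 28846 probe sets on 4 Clariom S arrays as log2 signals, which the authors normalized with SST-RMA in the Transcriptome Analysis Console, per the series' design text. The sources used here give no genome build, and the detection filter that the design text names was not applied. After removal of 6640 control probe sets, 22206 gene probe sets entered the tests. The platform annotation gave 19572 of them 1 symbol and 0 several, and 2634 stayed unnamed here.

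The groups (TCQA and control, 2 arrays each, from the sample titles) were compared by lmFit and eBayes (limma 3.58.1, R 4.3.3), two-sided, TCQA minus control, on these deposited log2 signals, with Benjamini-Hochberg adjustment over all 22206. The fit had 2 residual and 4.23 prior degrees of freedom. The fit was tested on simulated data. Precision is limited by having 2 arrays a group, and the median SE of a difference was 0.20.

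Members and lists were chosen with earlier results of these data known. Each list uses the brightest probe set of a symbol, and listed genes without a named probe set were left out. Genes to be named were the 8 members, up to 4 of each list with the smallest unadjusted p, also Nrxn2, Nrxn3, Adgrb3, Gabra6, Tcf7l2, Prox1, Ttr and Slc17a7, and the 5 genes most like a member past the depositors' criterion, by the smallest largest absolute difference over the arrays. The text gives those that bear on the family, and some listed items are not reported here. Alternatives were a replicate block, quantile normalization, median centring, only probe sets at or above the median signal, other variance moderation, and leaving out each array.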

Additional observations from a re-analysis of the deposited data

How the results depend on the processing

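Probe sets past the depositors' criterion numbered 83, against 36 when only probe sets at or above the median signal were fitted, 25 without empirical Bayes moderation, and 160 to 291 with 1 array left out, where the lone array of a group is taken to vary like the other group. Without TCQA replicate 1, 4 probe sets had an adjusted p under 0.05 in limma, none of them among the 8 genes. Cbln1 kept its direction in every setting tried, and it missed the criterion without empirical Bayes moderation (unadjusted p = 0.0615 in limma) and without control replicate 2. With 1 array left out, the median difference of the 8 genes ranged from -0.0607 to 0.446, and the number with groups that did not overlap from 5 to 8, where 66.6% to 69.3% of all gene probe sets did not overlap, since a single array overlaps less easily. Median centring left 4 such genes. The binding partner median was -0.0232 in the bright probe sets and -0.0186 to 0.0862 with 1 array left out. With 1 array left out, the median of the other organisers ranged from -0.208 to -0.0783 and that of the other C1q-domain proteins from -0.173 to -0.0106. The cause of these shifts was not tested. A replicate block gave 92 probe sets past the criterion and changed no call among the 8 genes. The replicate numbers are not said to pair the arrays, and the differences within the TCQA and control pairs correlated at 0.0507 across gene probe sets, which are not independent replicates.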
